A study of Homo sapiens with 4 samples.

Results

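The genes described here are 44 genes of the DNA damage checkpoint and of recombination repair, chosen by name for what their products do. The rule uses no measured value, but earlier results of these data were known when the list was drawn up. They were 44 of 26475 gene symbols measured, and all 44 were among the 15204 genes that reached 10 counts in 1 library or more and were tested. The members fall into 7 groups by role: kinases of the checkpoint, sensors of breaks, the BRCA1 and BRCA2 complexes, factors of strand exchange, the Fanconi core complex, FANCD2 with its partners, and enzymes that resect DNA ends or separate joined DNA molecules. The tables use the older symbols MRE11A and H2AFX for MRE11 and H2AX.

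RNA was sequenced from mammospheres, floating spheres grown from cells in non-adherent culture, of the established triple-negative breast carcinoma line MDA-MB-468, which is basal-like. Cells carried Cas9 and a doxycycline-inducible guide, either a control guide or TCOF1 gRNA2. The 4 libraries were CTL (control guide, no doxycycline), CTL+dox (control guide with doxycycline), gRNA2 (the TCOF1 guide without doxycycline, labelled wild type like both CTL libraries) and gRNA2+dox (the TCOF1 guide with doxycycline, labelled TCOF1 knockout). Each condition had 1 library, so no difference had a replicate check and no test across replicates was made. The cells had been transduced with lentivirus and sorted or drug-selected, and the labels name no single clone, so the knockout library may hold cells in which TCOF1 was not cut. Intervals given in square brackets are 95% counting intervals of a pair of libraries, and since reads without molecular identifiers are not independent molecules they cover counting error only.

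A double-strand break or a stalled fork is bound by sensors that activate the kinases ATM and ATR, which pass the signal to CHEK2 and CHEK1 and halt the cell cycle. Broken ends are then resected, BRCA1 and BRCA2 with their partners prepare them for strand exchange with an intact copy, and the Fanconi proteins unhook crosslinks between the DNA strands. Treacle, the product of TCOF1, is a nucleolar protein of ribosomal RNA synthesis that binds NBN and TOPBP1 when ribosomal DNA is broken. Many of these genes are expressed mainly in cells that replicate their DNA, so their RNA level in bulk depends on how many cells are cycling.

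The target of TCOF1 gRNA2 is shown because it is the perturbation the libraries are compared for. It lies at chr5:149754959-149754981 of GRCh37, on the reverse strand within exon 11 of the 27 exons of the TCOF1 canonical transcript, and capitals mark the protospacer-adjacent motif.
TCOF1 gRNA2 target: gggccggcgcctttccccaaGGG

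The 250 bases before the start are also shown for 4 of the 5 members that lay below or above all 3 other libraries in gRNA2+dox, from RefSeq on GRCh38.p14 and read 5′ to 3′ on the strand of the gene. Capitals mark 3 motifs searched on both strands: the E2F core (TTCCCGC or TTGGCGC), the CHR element (TTTGAA or TTCGAA) and the CCAAT box (CCAAT). E2F and CHR elements are known from promoters of genes that vary with the cell cycle.
ATM, chr11:108222817-108223066, forward strand: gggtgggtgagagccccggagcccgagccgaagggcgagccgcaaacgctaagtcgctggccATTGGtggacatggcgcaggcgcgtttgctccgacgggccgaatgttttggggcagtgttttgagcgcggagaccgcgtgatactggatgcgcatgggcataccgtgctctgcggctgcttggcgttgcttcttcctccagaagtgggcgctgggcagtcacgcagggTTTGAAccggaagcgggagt
H2AFX, chr11:119095466-119095715, reverse strand: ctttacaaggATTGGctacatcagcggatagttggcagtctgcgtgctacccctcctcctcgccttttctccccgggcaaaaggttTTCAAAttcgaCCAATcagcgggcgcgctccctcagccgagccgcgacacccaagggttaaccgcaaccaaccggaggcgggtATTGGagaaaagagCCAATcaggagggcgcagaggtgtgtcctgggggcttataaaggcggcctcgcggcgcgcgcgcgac
RAD51AP1, chr12:4538640-4538889, forward strand: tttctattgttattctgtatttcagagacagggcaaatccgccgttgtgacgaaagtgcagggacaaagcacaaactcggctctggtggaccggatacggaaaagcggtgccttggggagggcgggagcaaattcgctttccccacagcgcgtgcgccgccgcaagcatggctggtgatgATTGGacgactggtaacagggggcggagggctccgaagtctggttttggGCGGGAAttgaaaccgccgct
UBE2T, chr1:202341937-202342186, reverse strand: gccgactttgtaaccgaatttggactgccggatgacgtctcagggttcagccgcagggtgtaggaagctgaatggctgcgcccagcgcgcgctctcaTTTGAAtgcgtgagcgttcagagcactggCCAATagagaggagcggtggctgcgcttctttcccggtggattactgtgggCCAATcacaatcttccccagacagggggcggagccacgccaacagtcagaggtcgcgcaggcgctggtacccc

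The ATM window held a CHR match 20 bases and a CCAAT box 188 bases before the start. In H2AFX the CHR match lay 164 bases before the start among 4 CCAAT boxes at 240, 153, 81 and 67 bases. RAD51AP1 had an E2F core match 21 bases and a CCAAT box 70 bases before its start. The UBE2T window had a CHR match at 153 bases and CCAAT boxes at 124 and 73 bases. The window of BRCA1, the other of the 5, lies at the outermost start of the gene in RefSeq, held 0 matches of the 3 motifs and is not shown although it is counted among the matched promoters. Across the 40 members matched to a RefSeq promoter, 9 held an E2F core (22.5%, against 7.81% of all 35116 promoters), 6 a CHR element (15%, against 14.3%) and 22 a CCAAT box (55%, against 32%). All promoters here include those of genes that are silent in these cells and of genes that code for no protein. The 9 members with an E2F core were TOPBP1, MDC1, RAD51AP1, RAD54L, FANCC, FANCG, FANCL, BLM and EME1. Of these RAD51AP1, FANCL and BLM were lowest in gRNA2+dox, TOPBP1, MDC1 and EME1 were lowest in CTL+dox, and RAD54L, FANCC and FANCG were lowest in gRNA2.

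The libraries held 19960644 to 26322847 counts on genes. Levels are given as CPM, the counts of a gene per 1000000 counts of its library after TMM scaling, on which a floor of 3 counts stood for 0.114 to 0.148. Wherever 4 values follow each other, the order is CTL, CTL+dox, then gRNA2 and last gRNA2+dox. TCOF1 itself had 1019, 754, 1318 and 437 reads, or 50.4, 33.5, 50.1 and 20.0 CPM. Its log2 ratio in gRNA2+dox was -1.32 [-1.48, -1.17] against gRNA2 and -0.74 [-0.92, -0.57] against CTL+dox, and CTL+dox stood at -0.59 [-0.73, -0.45] against CTL. The basal markers KRT5 (3284 to 4192 CPM), KRT14 (1166 CPM in gRNA2+dox and 1367 to 1560 in the others), KRT17 and EGFR and the general epithelial markers KRT8, KRT18, EPCAM and CDH1 were detected at 200.2 CPM or more in every library. The hormone receptors ESR1 and PGR had at most 13 and 7 reads, and ERBB2, which encodes HER2, had 270 to 387. Among markers of other cells, PTPRC, CD3E, LUM and DCN had at most 3 reads and CDH5 had 0. ITGAM had 5 to 8 reads, PECAM1 at most 12 and VWF 15 to 28, whereas CD68 had 1905 to 3036, CD14 had 233 to 280 and COL1A1 had 358 to 543. Reads mapping to several places made up 3.39% in gRNA2+dox and 4.02% to 4.85% in the other libraries. RefSeq places another gene over at least part of 30 members, and 6 members have pseudogenes named after them (CHEK2, MRE11A, BRCA1, RBBP8, RAD51AP1 and FANCD2), so their counts may miss shared reads.

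Every member was detected in every library. The fewest reads were 15, for EME1 in CTL+dox, and the most were 4103, for USP1 in gRNA2. Per kilobase of canonical transcript, H2AFX had the highest level of the members in CTL (90.3 CPM per kb), followed by USP1 (43.8), UBE2T (29.5), RBBP8 (23.6), TOPBP1 (23.2), CHEK1 (19.5), MUS81 (15.5) and MDC1 (12.5). Neighbours such as RBBP8 and TOPBP1 stood closer to each other than either did to itself across libraries, TOPBP1 ranging from 21.3 to 24.1 CPM per kb. At the low end were ATM (0.509 CPM per kb), BLM (0.462), XRCC2 (0.456), FANCM (0.437) and EME1 (0.382). The median member had 299.5 reads in CTL, against 369 for all genes tested. The median span of the log2 level over the 3 libraries without the knockout was 0.29 for members and 0.26 for all genes tested.

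**Figure D1:**
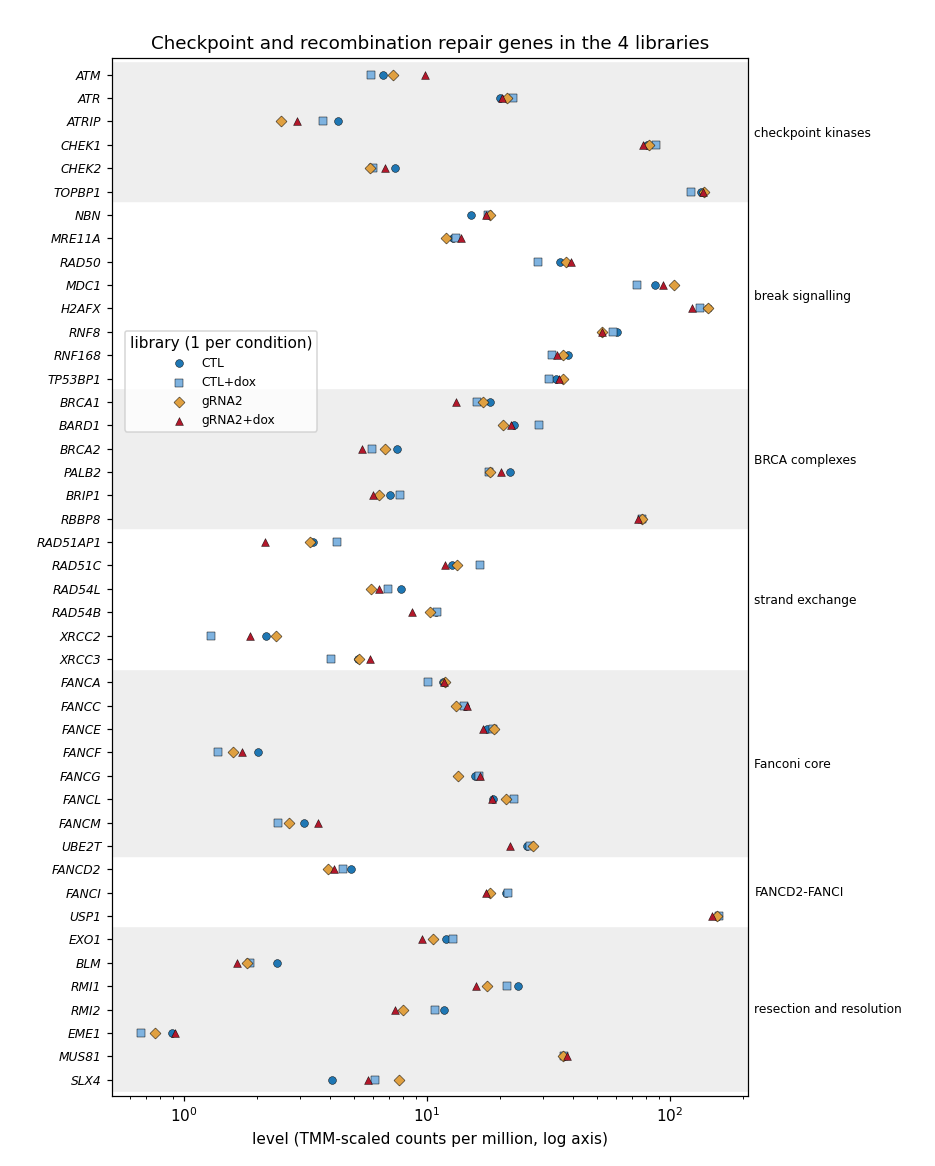
Level of each of the 44 members in the 4 libraries, in TMM-scaled CPM on a log axis, ordered by role, with 1 point for each library. Most members have their 4 points close together, RAD51AP1 and BRCA1 have the gRNA2+dox point on the left, and ATM has it on the right.

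Most members differed little between gRNA2+dox and gRNA2, the library of the same cells without doxycycline. The median member log2 ratio was -0.06 (all genes -0.002), and 28 members lay below 0, 63.6% against 50.4% of all genes tested. Counting intervals lay wholly below 0 for 7 members (15.9%, against 14.9% of all genes) and wholly above 0 for 2 (4.55%, against 15.8%). The share of lower members was thus near the background, and the share of higher members was below it. At 1.5-fold or more, 1 member (RAD51AP1) was lower and 0 were higher, where 5.35% and 3.99% of all genes passed. In this comparison the members ranged from -0.61 to 0.44 on the log2 scale.

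Against CTL+dox, which shares doxycycline but not the guide, the median was -0.10, and 26 members lay below 0 (59.1%, against 50.1%). Intervals lay below 0 for 16 members (36.4%, against 19.6%) and above 0 for 6 (13.6%, against 20.6%). RAD51AP1 was at least 1.5-fold lower and ATM at least 1.5-fold higher, with 7.26% and 5.2% of all genes past these limits. Against CTL the median was -0.09, with 28 members below 0 (63.6%, against 50.6%). Here 13 intervals lay below 0 (29.5%, against 16.1%) and 4 above (9.09%, against 17%), and RAD51AP1 and RMI2 passed 1.5-fold lower and 0 members higher (all genes 7.24% and 4.3%). The 3 comparisons share the gRNA2+dox library and are not independent of each other.

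The libraries without the knockout also differed among themselves. Between CTL+dox and CTL the median was -0.10, with 25 members below 0 (56.8%, against 49.8%), 7 intervals below 0 (15.9%, against 15.6%) and 6 above (13.6%, against 14.8%). Between gRNA2 and CTL the median was -0.07, with 28 members below 0 (63.6%, against 50.8%), 9 intervals below 0 (20.5%, against 15.1%) and 3 above (6.82%, against 15.7%). XRCC2 was at least 1.5-fold lower and SLX4 at least 1.5-fold higher in CTL+dox than in CTL (all genes 4.7% and 3.8%). ATRIP was lower and SLX4 higher by that measure in gRNA2 than in CTL (5.66% and 3.97%).

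Of the 4 libraries, gRNA2+dox held the lowest level of 19 members (43.2%, against 25.7% of all genes), CTL+dox of 13 (29.5%, against 29.3%), gRNA2 of 9 (20.5%, against 24.7%) and CTL of 3 (6.82%, against 20.2%). The highest level was in CTL for 14 members (31.8%, against 21.2%), in CTL+dox for 12 (27.3%, against 29.6%), and in gRNA2 and gRNA2+dox for 9 each (20.5%, against 24.4% and 24.8%). Beyond the counting interval, gRNA2+dox stood below all 3 other libraries for H2AFX, BRCA1, RAD51AP1 and UBE2T (4 members, 9.09%, against 4.56%). ATM was the 1 member that stood above all 3 (2.27%, against 5.3%). In bulk RNA, fewer cells expressing a gene and less RNA per cell cannot be told apart.

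**Figure D2:**
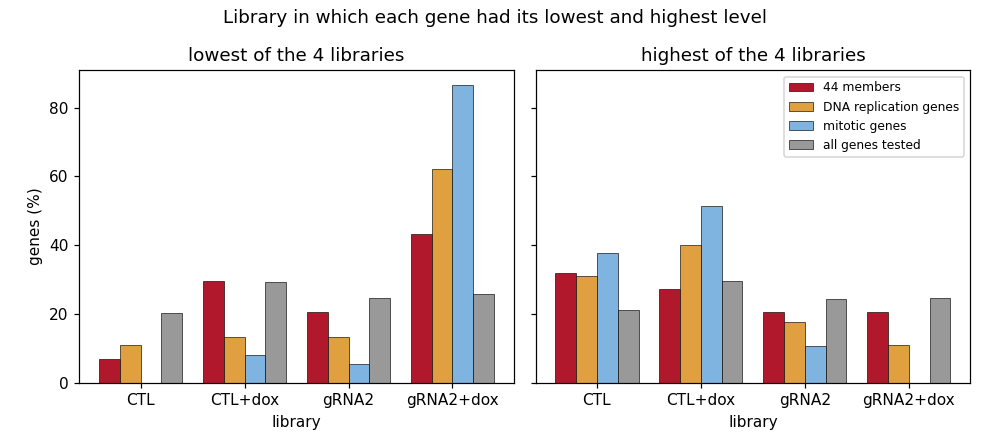
Share of genes (%) whose lowest (left) or highest (right) level lay in each of the 4 libraries, as bars for the 44 members, the DNA replication genes, the mitotic genes and all genes tested. The gRNA2+dox library held the lowest level of 43.2% of members and of 25.7% of all genes tested.

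Among the checkpoint kinases, ATM stood apart. ATM, the kinase activated by double-strand breaks (chromosome 11, 108223067 to 108369102 of GRCh38), had 133, 133, 191 and 215 reads, or 6.57, 5.91, 7.25 and 9.85 CPM. The knockout library was the highest, and both gRNA2 cell libraries lay above both CTL cell libraries. Its log2 ratio in gRNA2+dox was 0.44 [0.15, 0.73] against gRNA2. Against CTL+dox it was 0.73 [0.42, 1.06], and against CTL 0.58 [0.27, 0.91]. C11orf65 overlaps part of ATM in RefSeq, and reads shared by overlapping genes are not counted.

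ATR, the kinase that responds to single-stranded DNA at stalled forks, had 20.0, 22.5, 21.5 and 20.3 CPM, and every pair of libraries compared lay within counting error. ATRIP, which brings ATR to that DNA, had 87, 84, 66 and 64 reads (4.30, 3.73, 2.51 and 2.93 CPM). Both gRNA2 cell libraries were low for ATRIP, so that gRNA2 stood at -0.77 against CTL and gRNA2+dox at 0.22 against gRNA2. CHEK1, the effector kinase of ATR, had 80.4, 87.4, 82.2 and 77.9 CPM, with log2 ratios of -0.08 against gRNA2 and -0.17 against CTL+dox. CHEK2, the effector kinase of ATM, had 149, 135, 153 and 147 reads, and its 3 ratios in gRNA2+dox all lay within counting error.

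The treacle partners NBN and TOPBP1, and MDC1, which binds both, each had a pattern of its own. TOPBP1, which activates ATR, had 2709, 2756, 3654 and 2999 reads (134, 123, 139 and 137 CPM), and only CTL+dox was low. The ratio of gRNA2+dox was -0.01 [-0.09, 0.06] against gRNA2 and 0.17 [0.09, 0.24] against CTL+dox. NBN, the subunit of the MRE11-RAD50-NBN complex that binds ATM, had 309, 402, 481 and 383 reads (15.3, 17.9, 18.3 and 17.5 CPM). CTL was the low library for NBN, and the knockout stood at -0.06 [-0.26, 0.14] against gRNA2, with CTL+dox giving -0.03 [-0.23, 0.18] and CTL 0.20 [-0.02, 0.42]. MDC1, the scaffold that binds phosphorylated H2AX, had 1760, 1654, 2739 and 2056 reads (87.0, 73.5, 104 and 94.2 CPM). For MDC1 the knockout lay below gRNA2, at -0.14 [-0.23, -0.06], and above both CTL cell libraries, at 0.36 [0.26, 0.45] and 0.12 [0.02, 0.21].

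Of the other break sensors and chromatin factors, H2AFX was the 1 gene whose knockout library lay below every other beyond the counting interval. H2AFX encodes the histone variant H2AX, which ATM phosphorylates around breaks (chromosome 11, 119093874 to 119095465). It had 2908, 3002, 3778 and 2699 reads, or 144, 133, 143 and 124 CPM. Both doxycycline libraries lay below both libraries without it, with ratios of -0.21 [-0.29, -0.14] to gRNA2, -0.11 [-0.19, -0.04] to CTL+dox and -0.22 [-0.29, -0.14] to CTL.

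MRE11A, the nuclease of the break-sensing complex, had 260, 296, 315 and 301 reads, and each of its ratios lay within counting error. RAD50, its ATPase partner, had 35.4, 28.6, 37.4 and 39.2 CPM. CTL+dox was low for RAD50, with gRNA2+dox at 0.45 [0.30, 0.60] against it and at 0.07 against gRNA2. RNF8, the ubiquitin ligase that MDC1 recruits, had 60.9, 58.6, 52.8 and 52.5 CPM, low in both gRNA2 cell libraries with or without doxycycline. RNF168, the ligase that extends the RNF8 mark, had 38.1, 32.8, 36.3 and 34.4 CPM. TP53BP1, which restrains resection at marked chromatin, had 34.0, 31.8, 36.3 and 34.9 CPM. RNF168 and TP53BP1 were lowest in CTL+dox, and the knockout library lay between the others.

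In the BRCA1 and BRCA2 complexes all 6 genes had a ratio below 0 in gRNA2+dox against CTL, with a median of -0.18, and all 6 were also below 0 in gRNA2 against CTL (median -0.15), where 50.6% and 50.8% of all genes were below 0. Of the 6, 2 (33.3%, against 16.1% of all genes) and 1 (16.7%, against 15.1%) had counting intervals below 0 in these comparisons. In gRNA2+dox against gRNA2, 4 of the 6 had a ratio below 0 (all genes 50.4%), and against CTL+dox 5 of the 6 (50.1%). BRCA1, which promotes resection and recombination (chromosome 17, 43044295 to 43170327), had 367, 363, 448 and 288 reads, or 18.1, 16.1, 17.0 and 13.2 CPM. The knockout library was the lowest, with log2 ratios of -0.37 [-0.59, -0.15] to gRNA2, -0.29 [-0.52, -0.06] to CTL+dox and -0.46 [-0.69, -0.23] to CTL. BARD1, the obligate partner of BRCA1, did not follow it. It had 22.8, 29.0, 20.5 and 22.2 CPM and was high in CTL+dox, so that its ratio was 0.11 against gRNA2 and -0.39 against CTL+dox.

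BRCA2, a mediator of recombination on resected DNA, had 152, 134, 177 and 118 reads (7.51, 5.96, 6.72 and 5.40 CPM). Both doxycycline libraries were low for BRCA2, and its ratio of -0.31 [-0.66, 0.03] against gRNA2 lay within counting error. The BRCA2 ratio in gRNA2+dox was -0.14 [-0.51, 0.23] against CTL+dox and -0.47 [-0.83, -0.12] against CTL. PALB2, which joins BRCA1 to BRCA2, had 445, 406, 480 and 442 reads, and its ratio of 0.15 against gRNA2 lay within counting error. BRIP1, a helicase bound by BRCA1, had 143, 175, 167 and 131 reads and was lower in gRNA2+dox than in CTL+dox, at -0.37. RBBP8, the resection factor CtIP, was close to level, at 74.2 to 77.2 CPM.

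The strand exchange group held the member with the largest ratio below 0. RAD51AP1, which stimulates strand invasion (chromosome 12, 4538890 to 4560047), had 69, 96, 87 and 47 reads, or 3.41, 4.27, 3.30 and 2.15 CPM. Its lowest level was in gRNA2+dox and its highest in CTL+dox. The ratios were -0.61 [-1.16, -0.09] to gRNA2, -0.98 [-1.52, -0.47] to CTL+dox and -0.66 [-1.23, -0.11] to CTL, folds of 0.654, 0.507 and 0.634. With at most 96 reads in any library, the intervals of RAD51AP1 are wide.

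RAD51C, a recombination mediator, had 258, 373, 350 and 259 reads (12.8, 16.6, 13.3 and 11.9 CPM). CTL+dox was high for RAD51C, with gRNA2+dox at -0.48 against it and -0.16 against gRNA2. RAD54B, a motor protein of recombination, had 220, 247, 271 and 189 reads (8.66 CPM in gRNA2+dox and at least 10.3 CPM in the others). Its lowest level was in gRNA2+dox, but the ratio of -0.25 to gRNA2 lay within counting error, unlike -0.34 to CTL+dox and -0.33 to CTL. RAD54L, a motor protein of the same family, had 7.81, 6.93, 5.89 and 6.37 CPM and was lowest in gRNA2. XRCC2, another mediator, had 44, 29, 63 and 41 reads, and its lowest library was CTL+dox at -0.74 [-1.48, -0.04] against CTL. The XRCC2 ratios in gRNA2+dox all lay within counting error, at -0.35 [-0.95, 0.24] to gRNA2, 0.54 [-0.18, 1.28] to CTL+dox and -0.21 [-0.86, 0.44] to CTL. XRCC3, which pairs with RAD51C, had 5.19, 4.05, 5.28 and 5.82 CPM, again with CTL+dox lowest and gRNA2+dox at 0.52 against it.

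The Fanconi core complex, which attaches ubiquitin to FANCD2 and FANCI, was close to balanced, with medians of 0.05 to gRNA2, 0.02 to CTL+dox and -0.01 to CTL. UBE2T, the E2 enzyme that passes ubiquitin to FANCD2 (chromosome 1, 202331657 to 202341936), was the 1 gene of this group whose knockout library lay below all 3 others beyond the counting interval. It had 524, 598, 723 and 482 reads, or 25.9, 26.6, 27.5 and 22.1 CPM, and the knockout was the low library. Its ratios were -0.31 [-0.48, -0.15] to gRNA2, -0.27 [-0.44, -0.09] to CTL+dox and -0.23 [-0.41, -0.05] to CTL. FANCL, the E3 ligase that works with UBE2T, had 18.7, 22.8, 21.3 and 18.5 CPM, nearly the same in CTL and gRNA2+dox and at -0.20 [-0.39, -0.01] against gRNA2 and -0.30 [-0.50, -0.11] against CTL+dox.

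FANCG, a scaffold of the core complex, had 319, 370, 353 and 362 reads (15.8, 16.4, 13.4 and 16.6 CPM). For FANCG gRNA2 was the low library, which gave a ratio of 0.31 [0.09, 0.52] against it and of 0.01 against CTL+dox. FANCM, the DNA translocase of the complex, had 63, 55, 71 and 78 reads (3.11, 2.44, 2.70 and 3.57 CPM) and a ratio of 0.40 [-0.08, 0.89] against gRNA2 and of 0.54 [0.03, 1.07] against CTL+dox. FANCF, the adaptor between FANCM and the core, had 41, 31, 42 and 38 reads. The subunits FANCA (10.1 to 11.8 CPM), FANCC (13.2 to 14.6 CPM) and FANCE (17.1 to 18.9 CPM) had narrow ranges over the 4 libraries.

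FANCD2 and FANCI, the pair that carries the ubiquitin, and USP1, which removes it, had ratios below 0 in gRNA2+dox against CTL in 3 of 3 genes (50.6% of all genes were below 0), with a median of -0.23. The same 3 were below 0 in gRNA2 against CTL, without the knockout, with a median of -0.22. FANCD2 had 99, 102, 103 and 91 reads, or 4.89, 4.53, 3.91 and 4.17 CPM, and was lowest in gRNA2. FANCI had 21.3, 21.6, 18.2 and 17.6 CPM, with both gRNA2 cell libraries low. The FANCI ratio was -0.29 against CTL+dox and -0.05 against gRNA2. USP1 had 158, 160, 156 and 150 CPM, and its ratio of -0.06 against gRNA2 lay within counting error.

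In the group of resection and resolution enzymes, RMI1 and RMI2 were lower in the gRNA2 cells whether or not doxycycline was given. Both are subunits of the complex in which the BLM helicase dissolves paired Holliday junctions. RMI1 had 478, 483, 468 and 349 reads (23.6, 21.5, 17.8 and 16.0 CPM), with gRNA2 at -0.41 and gRNA2+dox at -0.56 [-0.77, -0.36] against CTL. The ratio of gRNA2+dox to gRNA2 was -0.15 [-0.36, 0.05]. RMI2 had 239, 242, 210 and 162 reads (11.8, 10.8, 7.98 and 7.42 CPM), with gRNA2 at -0.56 and gRNA2+dox at -0.67 [-0.97, -0.38] against CTL. BLM had 49, 42, 48 and 36 reads (2.42, 1.87, 1.82 and 1.65 CPM), too few to separate gRNA2+dox from any other library. EXO1, an exonuclease of resection, had 243, 289, 279 and 208 reads and was lowest in gRNA2+dox, at -0.43 against CTL+dox and -0.15 against gRNA2.

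SLX4, the scaffold of the structure-specific nucleases, differed most among the libraries without the knockout. Its reads numbered 82, 138, 202 and 125, or 4.05, 6.13, 7.67 and 5.73 CPM. The highest level was in gRNA2 and the lowest in CTL, and gRNA2+dox lay between them. Its ratio was -0.42 [-0.76, -0.09] against gRNA2 and 0.50 against CTL, and gRNA2 stood at 0.92 [0.54, 1.31] against CTL. MUS81, a nuclease that cuts branched DNA, was level at 36.6, 36.6, 36.2 and 37.8 CPM. EME1, the partner of MUS81, had 18, 15, 20 and 20 reads, and its ratio of 0.26 [-0.70, 1.24] against gRNA2 left both directions within counting error.

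The levels of 15 members were below both CTL cell libraries in both gRNA2 cell libraries (34.1%, against 23.2% of all genes): RAD54L, USP1, EXO1, RAD51AP1, FANCI, BLM, RMI2, BRIP1, RBBP8, BARD1, FANCD2, ATRIP, RNF8, RAD54B and RMI1. The levels of 7 were above (15.9%, against 22.2%): ATM, XRCC3, TP53BP1, FANCA, TOPBP1, RAD50 and MDC1. By doxycycline, 5 members were lower in both treated libraries than in both untreated ones (11.4%, against 15.8%), namely H2AFX, BRCA2, BRCA1, RNF168 and XRCC2. MUS81, MRE11A and FANCG were higher in both treated libraries (6.82%, against 16.5%). These orderings compare levels without their counting intervals and include differences within counting error. The MUS81 ratio in CTL+dox against CTL was 0.001 [-0.144, 0.146], and the RBBP8 ratio in gRNA2 against CTL was -0.003 [-0.099, 0.093]. Within these 4 libraries the pool of cells and the culture it was grown in cannot be told apart.

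The design sets the doxycycline ratio of the gRNA2 cells beside that of the CTL cells, and the difference between both uses each library once. This difference had a member median of 0.04. Its interval lay below 0 for 7 members (15.9%, against 12.4% of all genes) and above 0 for 6 (13.6%, against 14.3%), both near the background. SLX4 had the lowest difference, -1.02, with a doxycycline ratio of -0.42 in the gRNA2 cells and of 0.59 in those with the control guide. RAD51AP1 followed with -0.94, from -0.61 and 0.32. ATM had a difference of 0.59, from 0.44 and -0.15. FANCM had the highest difference, 0.75, from 0.40 and -0.35.

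**Figure D3:**
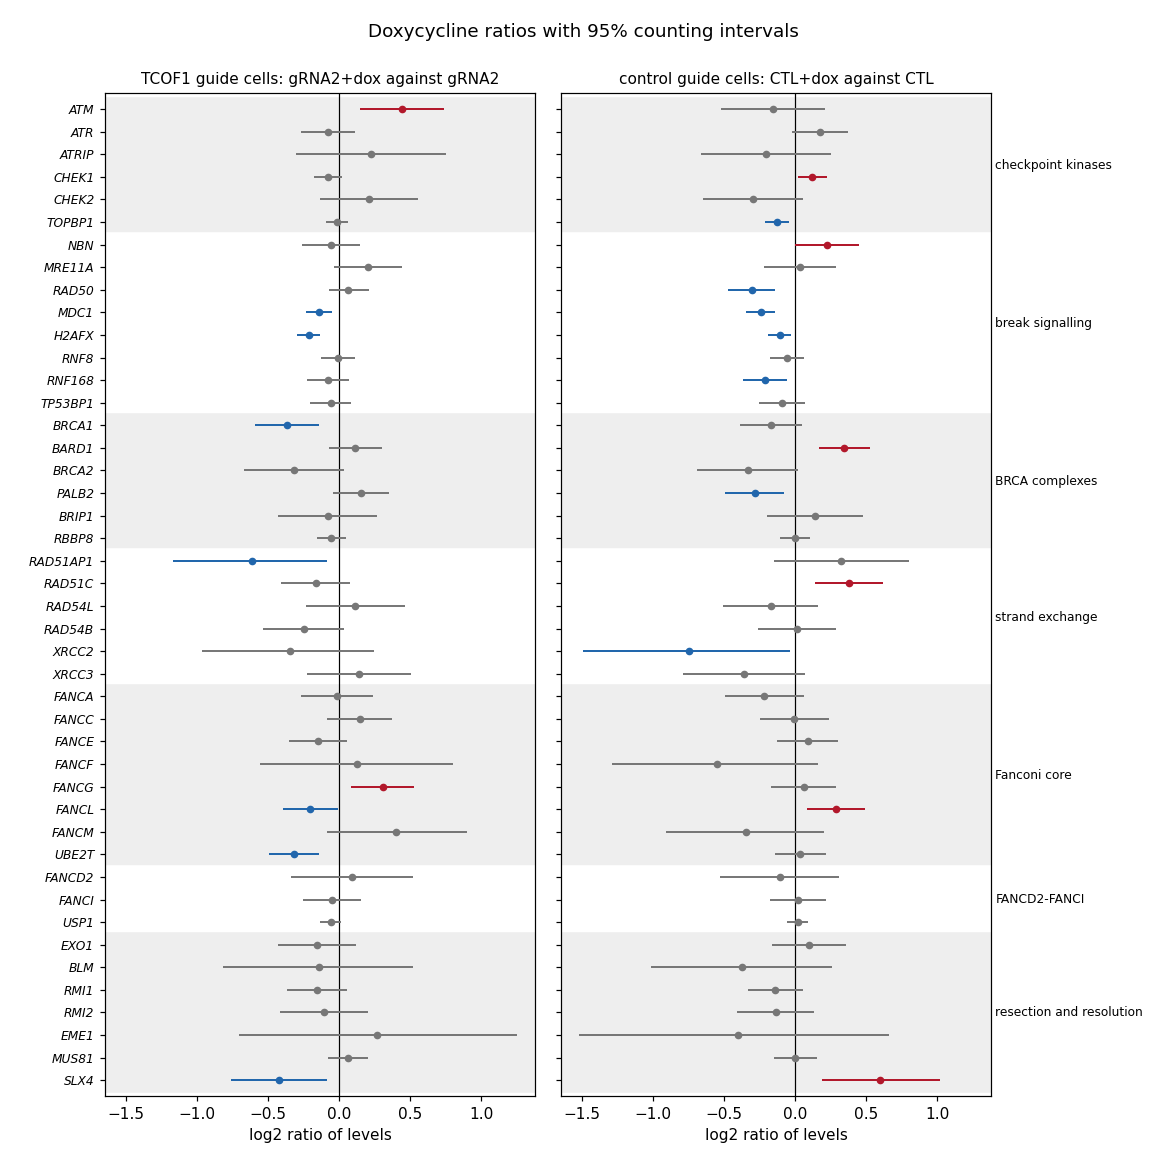
Doxycycline log2 ratios of the 44 members, gRNA2+dox against gRNA2 and CTL+dox against CTL, with 95% counting intervals. Blue and red mark intervals wholly below and above 0, and SLX4 is blue in the gRNA2 cells (-0.42) and red in the CTL cells (0.59).

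Other genes of the pathway were counted the same way. Of 53 further recombination and checkpoint genes tested, 6 had intervals below 0 and 4 above 0 in gRNA2+dox against gRNA2 (median -0.02), 11.3% and 7.55% where all genes had 14.9% and 15.8%. Against CTL+dox 13 lay below and 11 above (median -0.02), 24.5% and 20.8% where all genes had 19.6% and 20.6%. Against CTL 11 lay below and 4 above (median -0.08), 20.8% and 7.55% where all genes had 16.1% and 17%. For RPA1, CDC25A and GEN1 the knockout lay below all 3 other libraries beyond the counting interval, as it did for 4.56% of all genes. RPA1, the large subunit of the single-strand binding complex, had 112, 123, 106 and 99.8 CPM, with a ratio of -0.09 against gRNA2. CDC25A, the phosphatase that CHEK1 marks for destruction, had 336, 365, 441 and 283 reads, with a ratio of -0.37. GEN1, a Holliday junction resolvase, had 13.6, 14.2, 12.6 and 10.5 CPM, with a ratio of -0.26.

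The 13 end joining genes, which repair breaks without a template, had a median of 0.10 against gRNA2, with 0 intervals below 0 and 6 above (46.2%, against 15.8% of all genes). Against CTL+dox their median was 0.04, with 4 below (30.8%, against 19.6%) and 2 above (15.4%, against 20.6%). Against CTL it was 0.07, with 2 below (15.4%, against 16.1%) and 2 above (15.4%, against 17%).

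Most of the mitotic genes, and some of the replication genes, were lower in gRNA2+dox than in gRNA2 beyond the counting interval. Of 45 DNA replication genes, 17 had intervals below 0 (37.8%, against 14.9% of all genes) and 1 above 0 (2.22%, against 15.8%), with a median of -0.11. In gRNA2 against CTL, without the knockout, 13 replication genes had intervals below 0 (28.9%, against 15.1%) and 4 above (8.89%, against 15.7%). The lowest level of 28 was in gRNA2+dox (62.2%, against 25.7%). Their summed level was 2266, 2305, 2158 and 2020 CPM. Of 37 mitotic genes, 27 had intervals below 0 (73.0%, against 14.9%) and 0 above 0 (all genes 15.8%) against gRNA2, with a median of -0.28. In gRNA2 against CTL, 10 mitotic genes had intervals below 0 (27.0%, against 15.1%) and 1 above (2.70%, against 15.7%). The lowest level of 32 was in gRNA2+dox (86.5%, against 25.7%), and the mitotic genes summed to 835, 836, 776 and 648 CPM. The 44 members summed to 1261, 1225, 1256 and 1200 CPM. The part of cell cycling in the levels of BRCA1, RAD51AP1, UBE2T and H2AFX was not tested, and the difference between the lists was not tested.

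**Figure D4:**
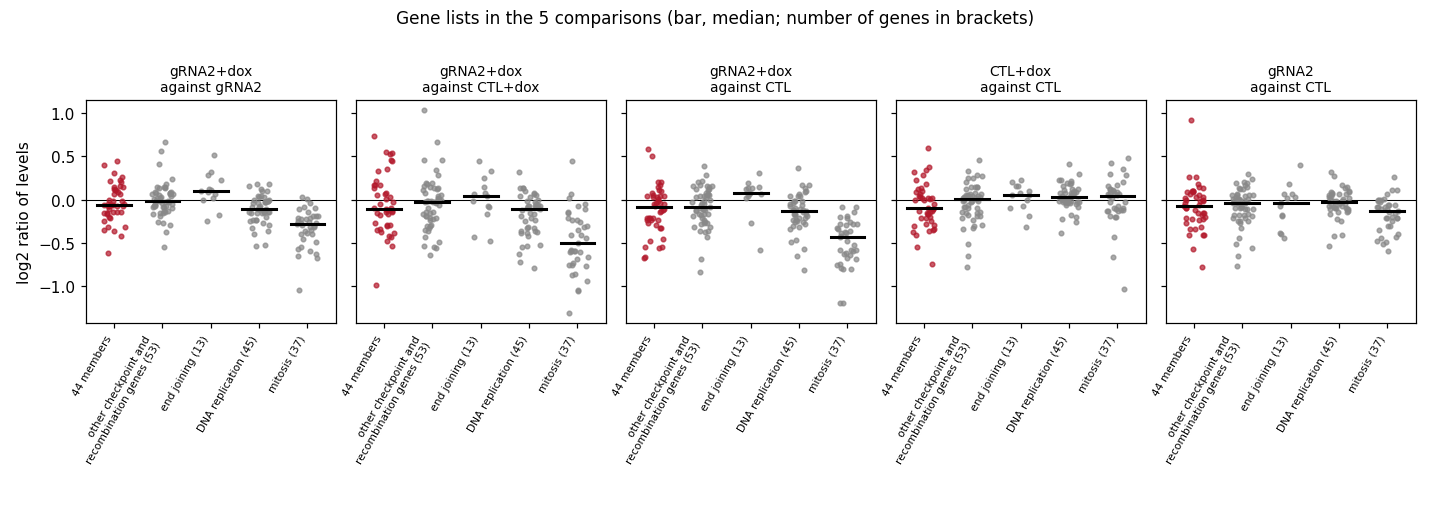
Log2 ratios of the members and of 4 pathway lists in the 5 comparisons, with 1 point for each gene and a bar at the list median. In the 3 comparisons of gRNA2+dox the member medians lie between -0.10 and -0.06, and the mitotic medians between -0.50 and -0.28.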

How the data were processed

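RNA-seq was done on 4 libraries of MDA-MB-468 mammospheres. The authors deposited, for each library, the count of reads that STAR assigned to each gene symbol, not normalized; the labels name hg38, and the annotation release is not given in the sources used here. Reads with several mapping places, and those of overlapping genes, are not counted by STAR. The unstranded counts were used, and 4 lines summing unassigned reads were left out (reads on genes were 79.7% to 81.0% of all).

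Library sizes were scaled by TMM with edgeR 4.0.16 in R 4.3.3, on genes that reached 10 counts in 1 library or more. Log2 ratios used a prior count of 0.5. Each 95% interval is the exact Clopper-Pearson interval for the share that 1 library holds of a pair's reads, computed with Python 3.11.15 and scipy 1.17.1 and tested on simulated data. The interval of a difference of log2 ratios comes from its counting standard error. No p-value is given. Transcript lengths are those of the canonical transcripts of GENCODE 44 lifted to GRCh37, and gene positions are from RefSeq. The alternatives tried were total counts, size factors of DESeq2 1.42.0, other filters, a prior count of 5, thinning to the smallest library and folds of 1.25 and 2.

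The members and lists were chosen with earlier results of these data known. Some members are given with their reads or level in each library and their ratio to gRNA2. These were the treacle partners, H2AFX, the 10 members lowest and the 5 highest in gRNA2+dox against gRNA2, and those below or above all 3 other libraries. Other members are given by level. Some genes are not reported here.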

Additional observations from a re-analysis of the deposited data

Results flagged for a closer look

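For 13 members the doxycycline ratio differed between the gRNA2 cells and the CTL cells by more than its counting interval, which holds no variation between cultures, and the difference was not tested across replicates. The difference lay below 0 for 7 of them (15.9% of members, against 12.4% of all genes) and above 0 for 6 (13.6%, against 14.3%). Both shares were near the background. On the log2 scale, gRNA2 cells less CTL cells, it was -1.02 for SLX4, -0.94 for RAD51AP1, -0.54 for RAD51C, -0.49 for FANCL, -0.35 for UBE2T, -0.20 for CHEK1 and -0.11 for H2AFX. It was 0.11 for TOPBP1, 0.37 for RAD50, 0.44 for PALB2, 0.51 for CHEK2, 0.59 for ATM and 0.75 for FANCM. For RAD50, PALB2, CHEK2, ATM and FANCM the doxycycline ratio was below 0 in the CTL cells and above 0 in the gRNA2 cells. The reverse held for SLX4, RAD51AP1, RAD51C, FANCL, UBE2T and CHEK1. For H2AFX and TOPBP1 both ratios were below 0. Only for SLX4, FANCL and H2AFX did both ratios have counting intervals that left out 0. For CHEK2 and FANCM both ratios lay within counting error, and for each of the others a single ratio did.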

How the results depend on the processing

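No paired analysis was possible because a single library stood for each condition, which also left no replicate to leave out. Of the values for the member list, 244 stayed close to the main value under the alternatives and 34 moved, mostly counts of few members. At the lower alternative fold limit, members lower and higher numbered 4 and 2 in gRNA2+dox against gRNA2 (1 and 0 at 1.5-fold), 9 and 8 against CTL+dox, and 9 and 2 against CTL, with 7 and 3 for CTL+dox against CTL and 7 lower for gRNA2 against CTL. Of all genes tested, 11.4% and 9.28%, 15% and 12.8%, 14.4% and 9.88%, and 11% and 9.05% passed that limit lower and higher in the first 4 of these comparisons, and 11.9% lower in the last. With a fold of 2, each count that was above 0 at 1.5-fold became 0. A prior count of 5 left 0 lower against gRNA2 and 0 higher for CTL+dox against CTL. With total counts, 5 members were 1.5-fold lower and 2 intervals lay above 0 against CTL, the median there was -0.13, and 0 were higher in CTL+dox against CTL. Without the filter, 1 member was 1.5-fold higher against CTL, the gRNA2 against CTL median was -0.044 with 5 intervals above 0, and 11 differences of doxycycline ratios lay below 0. After thinning, 2 were higher against CTL+dox with a median of -0.072, 2 lower and 0 higher in CTL+dox against CTL, and the gRNA2 against CTL median was -0.040. At 50 counts or more EME1, FANCF and BLM were not tested. The medians were then -0.054 for CTL+dox against CTL and -0.049 for gRNA2 against CTL. The resection group, without EME1 and BLM, turned from -0.13 to 0.001 in CTL+dox against CTL. Every single-gene ratio stayed inside its counting interval. Depth limits the genes with few reads, such as EME1, FANCF, XRCC2 and BLM, whose intervals were wide.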
